A study of Homo sapiens with 6 samples.

Results

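The genes described here build and steer the membrane carriers of the cell: subunits of vesicle coats, of tethering complexes and of endosomal sorting machinery, sorting nexins and syntaxins. They were chosen by name alone, as every gene whose symbol starts with VPS, SNX, COG, EXOC, SEC or STX and a digit, with COP and A, B, E, G or Z, or with TRAPPC, and which was the only gene named for a cluster. Measured values played no part in that rule. It gave 139 of the 11805 genes that were named alone for a cluster, with 5224 of 366429 clusters (1.43%) recovered with wild-type Rbfox1 and 2335 of 188027 (1.24%) with Rbfox1 F125A. The name rule also takes in some genes of other functions, such as the protein translocon, and these are described apart.

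All samples came from HEK293 Flp-In, human embryonic kidney cells built to take a transgene at a fixed site, in which Rbfox2 was knocked out (clone 7, so the line is a single clone). The WT group was 3 libraries from cells with a FLAG-Rbfox1(WT) transgene, the F125A group was 2 libraries from cells with FLAG-Rbfox1(F125A), and 1 control library came from cells without a transgene and was not analysed here. The RNA sequenced was what remained protected from nuclease in purified complexes of Rbfox1 with LASR, a large assembly of other splicing proteins. A cluster is a stretch of an intron of a protein-coding gene covered by that RNA, on the hg38 build, and each group has a single list of clusters with no read counts. Differences between the lists therefore had no replicate check, no p-value is given, and the 95% exact binomial intervals cover counting error only and treat clusters as independent.

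Membrane traffic runs on carriers that bud with the help of a coat, are captured by a tether and fuse through SNARE proteins. COPII coats form carriers leaving the endoplasmic reticulum and COPI coats act between the Golgi and the endoplasmic reticulum. The exocyst captures carriers at the plasma membrane, COG and TRAPP act at the Golgi, and HOPS, CORVET, GARP and EARP act on endosomes, lysosomes and the trans-Golgi. Retromer, retriever and sorting nexins retrieve cargo from endosomes, while ESCRT complexes sort it into inward vesicles. Rbfox proteins bind the RNA pentamer GCAUG through an RNA recognition motif, and F125A exchanges a phenylalanine of that motif for alanine.

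Bases were known for only a few of these clusters, those that fall on a RefSeq promoter window (250 bases before to 50 after an annotated start) or a microRNA hairpin of GRCh38.p14. Those below are examples, chosen to show the Rbfox pentamer in clusters recovered with WT alone beside clusters that lack it. Over all genes most clusters recovered with WT alone do not hold it, as the counts further on give. They are written 5′ to 3′ on the strand of the cluster, and capitals mark the Rbfox pentamer GCATG, which has U for T in the hairpin. The related pentamer GCACG was also searched on that strand. The first 3 are WT clusters that no F125A cluster overlapped, in EXOC4 (exocyst), SNX27 (a retromer-linked sorting nexin) and COG5 (a COG subunit), at chr7:133290870-133290931 on the plus strand, chr1:151613451-151613495 on the plus strand and chr7:107222056-107222090 on the minus strand. The EXOC4 bases cover 51 of the 62 nt of the cluster, those inside the MIR6133 hairpin. The fourth and the fifth overlap each other in COG8, WT at chr16:69330719-69330768 and F125A at chr16:69330730-69330768, both on the minus strand. The last is an F125A cluster of COG5 without a WT partner, at chr7:107203629-107203701 on the minus strand, of which 51 of 73 nt are known.
EXOC4, WT alone: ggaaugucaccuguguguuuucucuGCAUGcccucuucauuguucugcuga
SNX27, WT alone: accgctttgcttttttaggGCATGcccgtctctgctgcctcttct
COG5, WT alone: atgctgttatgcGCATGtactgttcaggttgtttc
COG8, WT, overlapped: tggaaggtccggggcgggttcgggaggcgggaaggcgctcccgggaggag
COG8, F125A, overlapped: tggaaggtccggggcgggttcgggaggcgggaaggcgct
COG5, F125A alone: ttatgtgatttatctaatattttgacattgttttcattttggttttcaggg

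The stretches were chosen for this contrast, so it is no result that all 3 WT-alone stretches hold GCATG and none of the others does. They also differ in G and C content, at 47.1% (EXOC4), 53.3% (SNX27) and 42.9% (COG5) in the 3 holders. The others stood at 76.0% and 74.4% (COG8, WT and F125A) and 25.5% (COG5, F125A). A further WT cluster without a partner, in VPS29 of retromer, lacked it in the 21 of 46 nt that are known, as did the known bases of partnered clusters in COPZ1 (shown next) and VPS9D1 and F125A clusters without a partner in SEC23A and EXOC7. These genes were named because their bases were known, after their values were seen. By comparison, GCATG occurred in 2.99% of all promoter stretches as long as the SNX27 cluster and in 2.24% of those as long as the COG5 cluster, and in 19.6% of 35116 whole promoter windows of 300 nt and 7.23% of 1562 hairpins. GCACG occurred in 17.2% and 2.62%. A match is a description of the letters and does not show binding.

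COPZ1, which encodes the zeta subunit of COPI, was the only other member with clusters over a hairpin. Its intron holds MIR148B at chr12:54337216-54337314 on the plus strand, and 2 WT and 2 F125A clusters covered the hairpin, the pair in each list abutting and each overlapping clusters of the other list. The hairpin is shown with its mature arms in capitals, and each arm with its seed (bases 2 to 8) in capitals, from RefSeq.
MIR148B hairpin: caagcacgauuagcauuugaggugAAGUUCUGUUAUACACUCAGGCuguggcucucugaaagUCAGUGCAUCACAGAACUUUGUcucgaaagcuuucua
hsa-miR-148b-5p: aAGUUCUGuuauacacucaggc
hsa-miR-148b-3p: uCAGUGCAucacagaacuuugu

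The upstream cluster of each pair (WT chr12:54337197-54337269, F125A chr12:54337204-54337262) covered the 5p arm and the downstream cluster the 3p arm. The junction between the pair lay after base 54337269 with WT and after base 54337262 with F125A. The hairpin holds GCACG near its 5′ end and no GCATG. Of 13 hairpins that lie within the bounds of the 139 genes, MIR148B and MIR6133 were the only ones overlapped by a cluster of the host gene's strand.

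The pentamer could be set against a larger background over all genes, in the 1018 WT and 872 F125A clusters that lie wholly within known bases. GCATG was held by 89 of 287 WT clusters without an F125A partner (31.0%, 25.7 to 36.7) and by 33 of 731 with a partner (4.51%, 3.13 to 6.28). Among F125A clusters it was held by 29 of 712 with a partner (4.07%) and by 4 of 160 without (2.50%, 0.685 to 6.28). SNX27 and COG5 are 2 of the 89, and COG8 is among the 731. Of all 1024 pentamers GCATG had the greatest difference between WT clusters without and with a partner (26.5 percentage points), before TGCAT (21.1), while GCACG stood at 4.18% and 3.97%. On the opposite strand GCATG was also more frequent without a partner, at 10.1% of WT clusters against 2.19% with one. Base composition moved with the grouping, the median G and C content being 50.7% without and 67.9% with a partner, and its part in the difference was not tested. Among clusters of 40 to 60% G and C, a range chosen after the data were seen, the shares were 34.6% (46 of 133) and 7.43% (13 of 175). These windows surround annotated starts, so they are not a sample of all introns.

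**Figure D1:**
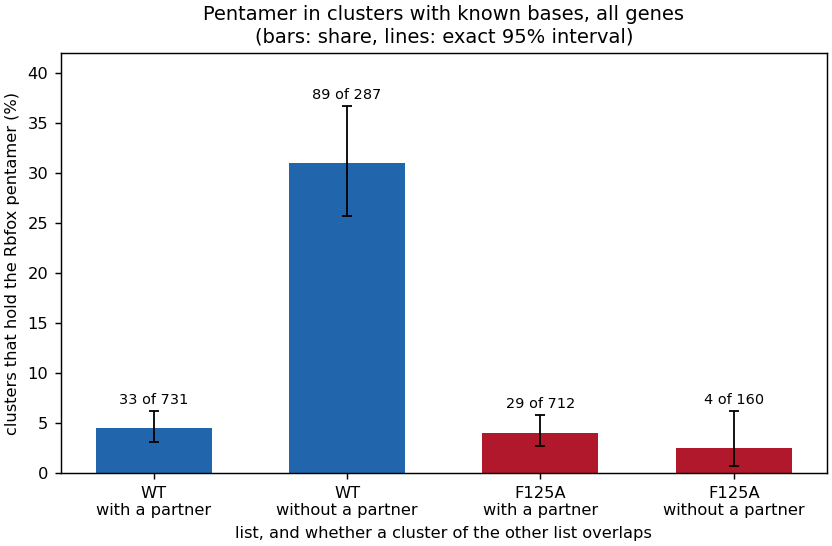
Share of clusters that hold the Rbfox pentamer, in percent, over all genes, for clusters of each list with and without an overlapping cluster of the other list; bars start at 0 and lines are exact 95% intervals. WT clusters without a partner stood at 31.0% and the other groups between 2.50% and 4.51%.

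Most of the 139 genes were recovered with both forms of Rbfox1. Clusters were present in both lists for 126 genes (90.6%, against 88.1% of all genes named alone), in the WT list alone for 12 (8.63%, against 9.70%) and in the F125A list alone for 1 (0.719%, against 2.15%). The median member had 17 WT and 8 F125A clusters, against 11 and 6 over all genes. The 10 members with most WT clusters held 2197 of the 5224 (42.1%). At the top stood EXOC4 with 503 WT and 185 F125A clusters, followed by the exocyst gene EXOC6B (289 and 101), the TRAPP gene TRAPPC9 (247 and 112), the lipid transfer gene VPS13B (241 and 65) and COG5 (222 and 95). WT clusters numbered 2.24 for each F125A cluster (2.13 to 2.35), against 1.96 in the other genes named alone and 1.95 in the lists as a whole. A number of clusters is not an expression level, and the lists give no RNA level to set it against.

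**Figure D2:**
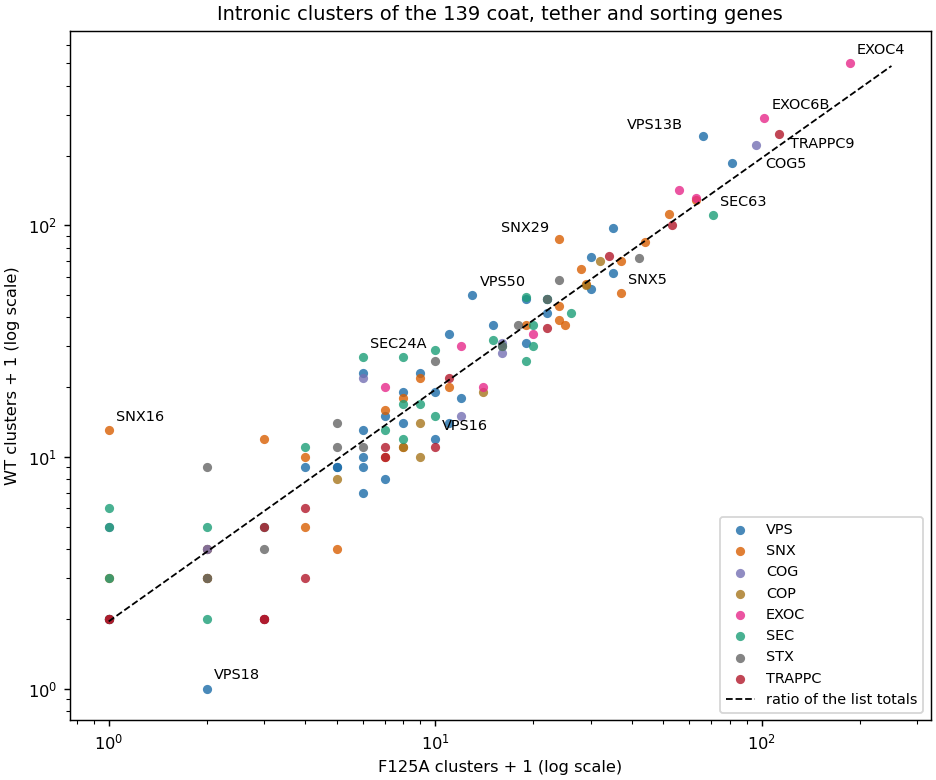
WT clusters against F125A clusters, each plus 1 and on log axes, for the 139 genes, coloured by name family; the dashed line is the ratio of the list totals. Counts run from VPS18 with 0 and 1, below the line, to EXOC4 with 503 and 185, above it, and SEC24A, VPS50 and SNX16 also lie above it.

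To compare genes, the log2 ratio of WT clusters to F125A clusters was taken with 1 added to each, minus that of the list totals (0.96), so that 0 means the ratio of the lists. It was computed for the 81 members whose clusters in the lists summed to at least 20, of 5626 such genes. Their median was 0.08 (95% interval from order statistics −0.04 to 0.16, quartiles −0.16 and 0.33), against −0.04 over all genes (quartiles −0.36 and 0.26). A ratio above 0 was found for 43 members (53.1%, against 46.5% of all genes) and below 0 for 38 (46.9%, against 53.5%). These shares over all genes are the background for each count above or below 0 in the groups described below. SEC24A alone was 2-fold or more toward WT, 1 of 81 members where the background was 2.51%, and no member was 2-fold or more toward F125A, where the background was 1.99%. The members ran from −0.70 to 1.21, while all genes ran from −2.13 to 4.08.

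A gene's counting interval lay wholly above 0 for 6 members (7.41%, against 5.85% of all genes), which were EXOC4, EXOC6B, SEC24A, SNX29, VPS13B and VPS50. No member's interval lay wholly below 0, against 4.37% of all genes. Ratios were higher in longer genes, as described further on, so each is also given relative to genes of like length, as the difference from their median. With that correction the member median was 0.06 against 0.00, and 47 of 81 were above 0 (58.0%, against 49.7%). SEC24A was again the 1 member at 2-fold toward WT (background 2.04%), with none toward F125A (background 0.462%).

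**Figure D3:**
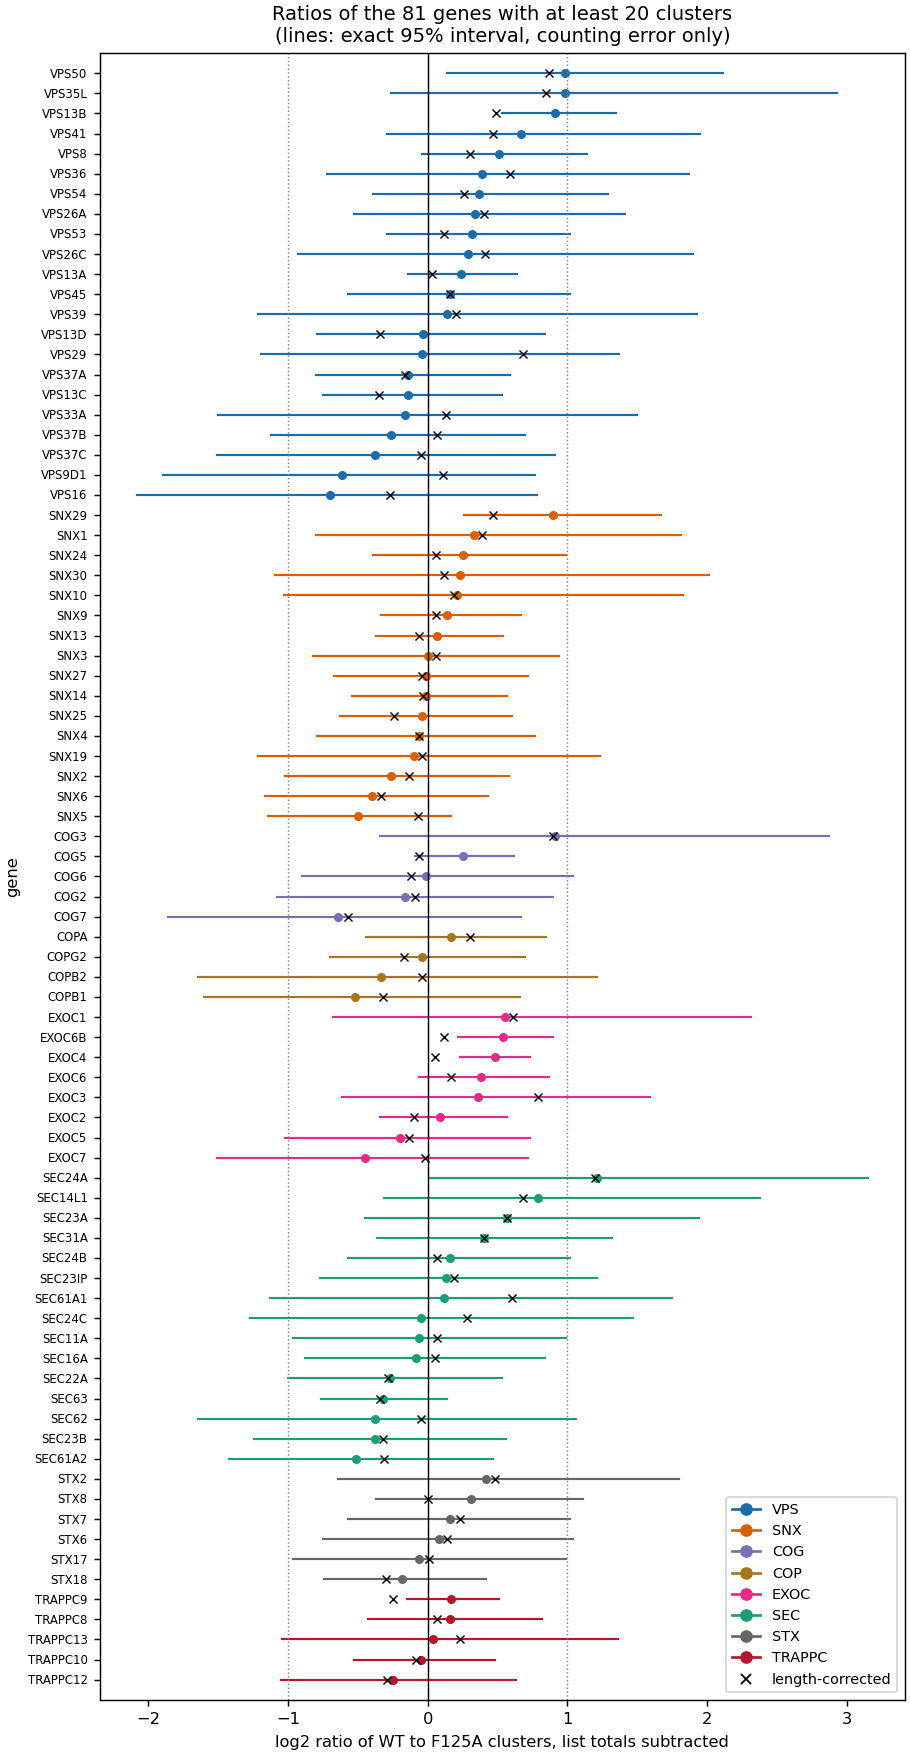
Log2 ratio of WT to F125A clusters of the 81 genes with at least 20 clusters, by name family, with exact 95% counting intervals as lines, length-corrected ratios as crosses and dotted lines at 2-fold. Points run from −0.70 (VPS16) to 1.21 (SEC24A), and most intervals include 0.

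Among tethers, the exocyst held the most clusters and its counts leaned toward WT, by little once gene length was allowed for. Its 8 genes had 1163 WT and 452 F125A clusters, or 2.57 to 1 (2.31 to 2.87), and 6 had ratios above 0. EXOC4 (chr7:133253078-134100951, 848 kb), which encodes a core subunit, had a ratio of 0.48 (0.23 to 0.73) that became 0.05 once corrected for length. EXOC6B (chr2:72175984-72826033, 650.0 kb) encodes a paralog of the subunit that binds Rab GTPases, and it went from 0.54 (0.22 to 0.90) to 0.12. EXOC6, its paralog, had 141 WT and 55 F125A clusters with a ratio of 0.38 (−0.06 to 0.87). EXOC2, the Ral-binding subunit, had 130 and 62 with 0.09 (−0.34 to 0.57). EXOC3 spans only 24.1 kb and had 29 and 11 clusters, giving 0.36 and, once corrected, 0.79. The exocyst median moved from 0.37 to 0.09 with the correction.

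The COG complex, which tethers carriers within the Golgi, followed the list totals as a group. Its 8 genes had 322 WT and 144 F125A clusters (2.24 to 1), and 2 of the 5 with a ratio were above 0. COG5, of lobe B of the complex, had a ratio of 0.25 (−0.09 to 0.62). COG3, of lobe A, had 21 WT and 5 F125A clusters and a ratio of 0.91 (−0.34 to 2.87), whereas COG2 of the same lobe had 27 and 15 with −0.16. COG7, of lobe B, lay at the other end with 14 and 11 clusters and −0.64 (−1.86 to 0.67), and COG6 had 30 and 15 with −0.01. The intervals of COG3 and COG7 overlap, so their order is not settled by these counts.

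TRAPP complexes activate Rab GTPases at the Golgi, and their genes kept close to 0. The 15 TRAPPC genes had 519 WT and 261 F125A clusters (1.99 to 1), and the 5 with a ratio lay between −0.25 and 0.17. TRAPPC9 and TRAPPC10, both of the TRAPPII form, had 247 and 112 clusters (0.17, −0.15 to 0.51) and 99 and 52 clusters (−0.05, −0.53 to 0.48). All 52 F125A clusters of TRAPPC10 overlapped a WT cluster. TRAPPC8 and TRAPPC12, of the TRAPPIII form, had 73 and 33 clusters (0.16) and 35 and 21 (−0.25). TRAPPC9 spans 731 kb and its ratio corrected for length was −0.25, lower than that of EXOC4 although both genes are very long.

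In GARP and EARP, which tether endosome-derived carriers, all 3 genes with a ratio lay above 0, where 46.5% of all genes did. They span 127 to 206 kb, and all genes of 122 to 864 kb had a median ratio of 0.22. The group had 188 WT and 68 F125A clusters, or 2.76 to 1 (2.08 to 3.70). VPS50 (chr7:93232366-93361123), the subunit that distinguishes EARP, had 49 and 12 clusters and a ratio of 0.98 (0.14 to 2.11), with 0.87 after correction. VPS54, its counterpart in GARP, had 47 and 18 with 0.37 (−0.39 to 1.29), and the shared subunit VPS53 had 72 and 29 with 0.32. The 10 kb of VPS50 with most WT clusters, a window picked on that count, held 10 WT and 0 F125A clusters. HOPS and CORVET, which tether endosomes and lysosomes, had 170 and 68 clusters with 3 genes above 0 and 2 below. VPS8, the CORVET-specific subunit, had 96 and 34 with 0.51 (−0.04 to 1.14), and VPS16, a core subunit, had the lowest ratio of all members, −0.70 (−2.08 to 0.78), from 11 and 9 clusters.

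The coats differed in their counts, COPII leaning toward WT and COPI slightly the other way, with intervals that overlap each other and include the 1.95 of the lists. The 9 COPII coat genes had 220 WT and 90 F125A clusters, 2.44 to 1 (1.90 to 3.16), and the 8 COPI genes had 182 and 100, 1.82 to 1 (1.42 to 2.35). SEC24A (chr5:134648382-134727909, 79.5 kb), a cargo-binding COPII subunit, had 26 WT and 5 F125A clusters and the highest ratio, 1.21 (0.01 to 3.15). Its call rests on 5 F125A clusters and is lost when 5 is added to each count in place of 1. The paralogs, named after their values were seen, lay lower, SEC24B with 47 and 21 clusters (0.16) and SEC24C with 16 and 8 (−0.05), and the intervals of all 3 overlap. SEC31A, of the outer cage, had 48 and 18 with 0.40 (−0.36 to 1.32).

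Of the 4 COPI genes with a ratio, COPA alone was above 0. COPA, the alpha subunit, had 69 WT and 31 F125A clusters in 54.7 kb and a ratio of 0.17 (−0.44 to 0.85). COPG2 (gamma) had 54 and 28 with −0.04, COPB2 (beta prime) 13 and 8 with −0.33, and COPB1 (beta) 18 and 13 with −0.52 (−1.60 to 0.66). SEC22A, named for a family of SNAREs between the endoplasmic reticulum and the Golgi, had 41 and 25 clusters with −0.27.

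Among endosomal sorting genes the ratios were split. The retriever subunits VPS35L and VPS26C had 40 WT and 12 F125A clusters together, and VPS35L alone had 22 and 5 with a ratio of 0.98 (−0.26 to 2.93). Retromer had 71 and 31 over 4 genes, 2.29 to 1 (1.48 to 3.61). Its smallest member in length, VPS29 (11.0 kb), had 18 and 9 clusters, all within 1 stretch of 10 kb, with a ratio of −0.04 and 0.68 after correction. ESCRT-I genes had 106 and 63 clusters, 1.68 to 1 (1.22 to 2.34). All 3 with a ratio were below 0, where 53.5% of all genes were, from −0.38 to −0.14, with a corrected median of −0.05.

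Sorting nexins, which bind phosphoinositides of endosomes through a PX domain, had 940 WT and 454 F125A clusters over 28 genes, a name family outnumbered only by the 35 VPS genes. Of the 16 with a ratio, 7 were above 0 and 9 below, with a median of −0.01. SNX13 and SNX14, of the group with PXA and RGS-like domains, had 128 and 62 clusters (0.07) and 84 and 43 (−0.01). SNX9, which couples membrane curvature to endocytosis, had 111 and 51 with 0.14 (−0.33 to 0.67). SNX29 (chr16:11976734-12574287, 598 kb) had the highest ratio of the 16, with 86 and 23 clusters and 0.90 (0.26 to 1.67), or 0.47 once corrected. The interval of SNX29 overlaps that of SNX9, though not that of SNX5. SNX5, a curvature-sensing SNX-BAR protein that binds cargo, had 50 and 36 clusters and −0.50 (−1.14 to 0.17), and −0.07 once corrected for its length of 27.2 kb. The SNX-BAR genes together had 234 and 132 clusters, 1.77 to 1 (1.43 to 2.21).

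Syntaxins, the SNAREs that anchor fusion on target membranes, had 311 WT and 143 F125A clusters over 12 genes (2.17 to 1), with 4 of 6 ratios above 0. STX18, of the endoplasmic reticulum, had 71 and 41 clusters with −0.18 (−0.74 to 0.42). STX8 and STX7, of late endosomes, had 57 and 23 with 0.31 and 47 and 21 with 0.16, and STX6, of the trans-Golgi, had 36 and 17 with 0.08. All of these intervals include 0.

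The 4 VPS13 genes, which encode bridge-like lipid transfer proteins at membrane contacts, had 528 WT and 200 F125A clusters, 2.64 to 1 (2.24 to 3.12), and split among themselves. VPS13B, linked to the Golgi, had a ratio of 0.91 (0.53 to 1.35), and 0.49 once corrected for its 864 kb. VPS13A had 185 and 80 clusters with 0.24 (−0.14 to 0.64). VPS13C and VPS13D, named after their values were seen, had 61 and 34 (−0.14) and 41 and 21 (−0.03). The interval of VPS13B overlaps those of VPS13A and VPS13D and meets that of VPS13C at 0.53.

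Genes that share the name pattern but serve other functions included the translocon, through which new proteins enter the endoplasmic reticulum, with 168 WT and 104 F125A clusters, 1.62 to 1 (1.26 to 2.08). SEC63, a helper of the translocon, had 110 and 70 with −0.32 (−0.76 to 0.14), and SEC61A2, a channel subunit, had 25 and 18 with −0.51 (−1.42 to 0.47). VPS9D1, which carries a VPS9 domain, had 13 and 10 clusters with −0.61 (−1.89 to 0.77), and 0.11 once corrected for its 13.8 kb. Leaving out the translocon, signal peptidase, SEC14-like genes, VPS72 and VPS9D1 left 74 genes with a median ratio of 0.11.

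The ratio followed gene length among these genes as it did over all genes. Spearman's rho of the ratio with the annotated length was 0.49 across the 81 members and 0.57 across the 5626 genes, and that of WT clusters with length was 0.76 and 0.67. These are correlations across genes, which share both lists and are not replicates. In the 27 shortest members (11.0 to 50.2 kb) the median ratio was −0.06, with 10 above and 17 below 0, and 615 WT and 328 F125A clusters (1.88 to 1). In the 27 of middle length (51.4 to 114 kb) it was −0.01, with 12 above and 15 below. In the 27 longest (122 to 864 kb) it was 0.25, with 21 above and 6 below, and 3090 and 1237 clusters (2.50 to 1). Over all genes of the same 3 length ranges the medians were −0.33, −0.01 and 0.22. By median, the short members thus lay higher than short genes, while the others lay close to genes of their length. Pooled clusters of all genes in those ranges stood at 1.55, 1.88 and 2.19 to 1, each below the members' 1.88, 1.97 and 2.50. These differences are given without a test. The median length of the 81 members was 72.2 kb, near the 71.2 kb of all genes with a ratio.

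**Figure D4:**
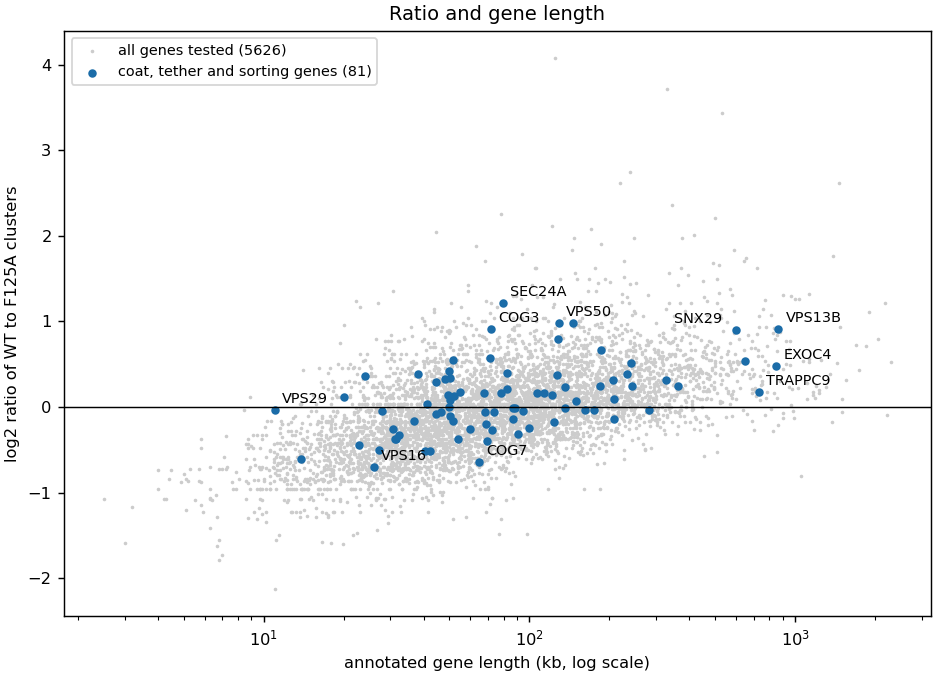
Log2 ratio of WT to F125A clusters against annotated gene length in kb (log axis) for all 5626 genes with at least 20 clusters (grey) and the 81 coat, tether and sorting genes (blue). Ratios are higher in longer genes in both sets (Spearman's rho 0.57 and 0.49).

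Most F125A clusters in these genes lay where WT clusters lay, whereas most WT clusters had no F125A counterpart. A cluster was said to have a partner when a cluster of the other list shared at least 1 nt on the same strand. This held for 1946 of 2335 F125A clusters (83.3%, 81.8 to 84.8) and for 2000 of 5224 WT clusters (38.3%, 37.0 to 39.6). List size bears on these shares. With 2335 F125A against 5224 WT clusters, most WT clusters would lack a partner even if each F125A cluster overlapped 1. In the other genes the shares were 85.3% (85.1 to 85.5) and 44.8% (44.6 to 45.0), both above those of the members, a difference given here without a test. WT clusters numbered 2.24 for each F125A cluster in the members and 1.96 in the other genes, which alone lowers the members' WT share. EXOC4 had 336 WT clusters without a partner, EXOC6B 193, VPS13B 179, TRAPPC9 146, COG5 141 and VPS13A 116. F125A clusters without a partner were far fewer in the same genes, 19 in EXOC4, 7 in EXOC6B, 7 in VPS13B, 14 in TRAPPC9, 19 in COG5 and 11 in VPS13A. Of 61 members with at least 10 F125A clusters, 4 had a partner for each of them and the lowest share was that of COG6, 9 of 15. Of 63 members with at least 20 WT clusters, the share with a partner ran from 9.52% in COG3 to 63.9% in SNX6. Shares per gene were not counted in other genes, so they do not show whether any of these genes is unusual.

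**Figure D5:**
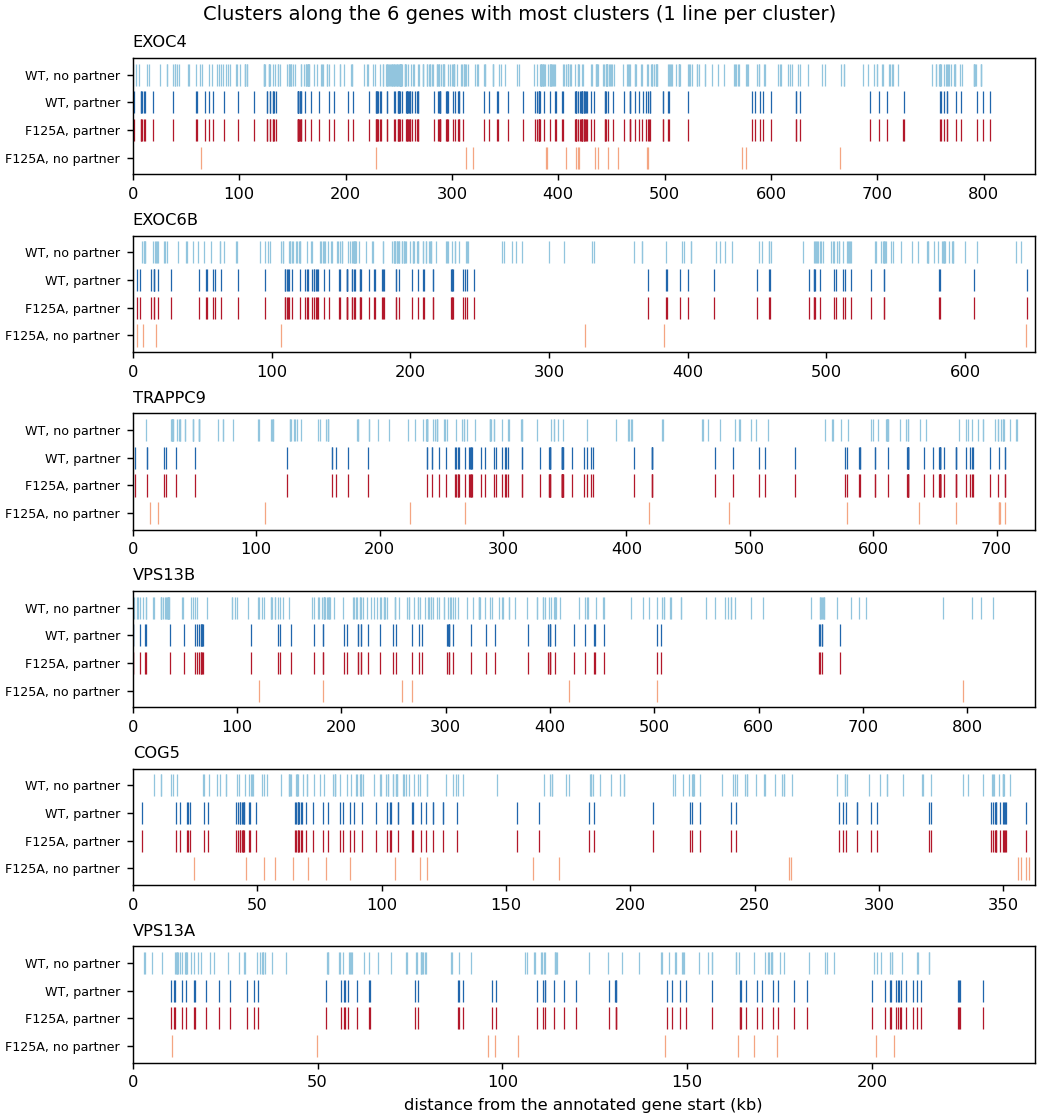
Places of clusters along the 6 members with most WT clusters without a partner, by distance from the annotated gene start in kb, 1 line per cluster and 1 row for each list with and without a partner. The rows of partnered clusters match by definition, and the row of F125A clusters without a partner is the sparsest in every gene (7 to 19 lines).

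Partners seldom had the same ends. Of the 2335 F125A clusters 288 (12.3%) shared their 5′ end with a WT cluster, 291 (12.5%) their 3′ end and 51 (2.18%) both, close to the 12.2%, 13.0% and 2.03% of other genes. Clusters were short, with a median of 61 nt in the WT list (quartiles 48 and 77) and 65 nt in the F125A list (51 and 82), 1 nt more than in the other genes (60 and 64). WT clusters with a partner had a median of 65 nt and those without 59 nt. The reverse held for F125A, with 63 nt with and 72 nt without. Sequenced inserts were selected at 20 to 80 nt, so a cluster above 80 nt was longer than any selected insert.

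Among the longest clusters, EXOC4 had WT clusters of 222 nt and 181 nt, of which the first overlapped an F125A cluster of 94 nt and the second none. EXOC2 had a WT cluster of 184 nt without a partner. COPG2 had a WT cluster of 170 nt over an F125A cluster of 173 nt, the best matched of the long ones, and TRAPPC9 a WT cluster of 169 nt over an F125A cluster of 135 nt. On the F125A side STX2, a plasma membrane syntaxin, had a cluster of 274 nt that overlapped 1 WT cluster of 119 nt. The next 4 overlapped no WT cluster, at 203 nt in SEC16A, which organises endoplasmic reticulum exit sites, 201 nt in VPS54, 198 nt in TRAPPC9 and 197 nt in TRAPPC11.

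Clusters also gathered unevenly along and between the genes. The members with a ratio had a median of 52.1 WT clusters per 100 kb, against 58.0 over all genes, from 11.0 in SNX30 to 184 in SNX5. VPS29 followed with 163, COPA with 126, SEC63 with 122 and EXOC3 with 120.3, and of these 5 only SEC63 was longer than the median member. The richest 10 kb of each gene was picked by its WT clusters alone. That of SNX5 held 28 of its 50 WT clusters (56.0%) and 18 F125A clusters, that of COPA 27 and 10, and that of SEC63 28 and 15. In EXOC4 the richest 10 kb had 28 WT and 8 F125A clusters, only 5.57% of its WT clusters. Neighbouring clusters lay closer than 50 nt in 594 of 5086 WT pairs (11.7%) and 203 of 2208 F125A pairs (9.19%), and 243 and 101 of these pairs abutted. Such pairs were not counted in other genes. The members had 5224 WT and 2335 F125A clusters, and whether that number bears on the share of close pairs was not tested.

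More clusters lay upstream than downstream within the genes, as in other genes. The upstream 50% of the gene held 58.8% of WT clusters (57.5 to 60.2) and 58.2% of F125A clusters (56.2 to 60.2), against 59.9% and 60.8% in other genes. The first 10% of the gene held 11.9% and 12.8%, below the 13.9% and 15.8% of other genes. Within 1 kb of the gene start lay 1.76% of WT clusters (1.42 to 2.16) and 3.17% of F125A clusters (2.50 to 3.96), and within 5 kb of the end 2.91% (2.47 to 3.40) and 4.33% (3.54 to 5.23). Both ends thus had a larger share of the F125A than of the WT clusters, as in other genes (1.96% and 3.37%, 3.79% and 5.23%).

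The 58 members without a ratio had 1 to 19 clusters each and 320 WT and 162 F125A clusters in all. SNX16, a PX-only sorting nexin, had the most of those found in a single list, 12 WT and 0 F125A clusters. SEC11C of the signal peptidase had 5 and 0, COG1 and SEC22B had 4 and 0 each, and SEC61B and SNX21 had 2 and 0 each. The remaining 6 WT-only genes had 1 cluster each, and VPS18, of HOPS and CORVET, had 0 WT and 1 F125A cluster. Such numbers are too small to call a gene absent from either list's RNA. Of 156 protein-coding RefSeq names of the pattern, 17 had no cluster that named them alone, 13 of them genes under 30 kb. The share over all protein-coding genes was not counted, so no trait of these genes is read from the 17. The 17 included the exocyst subunit EXOC8, the sorting nexins SNX15 and SNX20, and SEC14L5, the longest of them at 60.8 kb. STX16 had 46 clusters in each list that named it together with a readthrough gene, in a run of 5433 rows identical in both files, which held no cluster of the 139 genes.

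Genes that work with these complexes gave a similar picture. Of 142 genes in 5 lists, 126 had a cluster and 73 a ratio, and their median was 0.04, with 38 above and 35 below 0. STXBP5L, a syntaxin-binding protein (48 and 9 clusters, 1.33), and the golgin GOLGB1 (43 and 10, 1.04), both named after their values were seen, were 2-fold toward WT, 2 of 73 where the background was 2.51%, and none was 2-fold toward F125A, where it was 1.99%. The SNARE partners had a median of 0.02 over 16 genes, led by the SNARE VTI1A (177 and 66) and SCFD2 (147 and 61). Clathrin and adaptor genes had 0.09 over 22, led by AP3B1 (136 and 54), a subunit of the adaptor complex for lysosomal cargo, and EPS15 (127 and 71), an endocytic scaffold. Golgins and other tethers had 0.00 over 12, led by CUX1, a transcription factor gene that also encodes the golgin CASP (306 and 171), and NBAS (120 and 37). Other endosomal sorting genes had 0.14 over 15, led by COMMD10 (87 and 35) and WASHC4 (65 and 32). The GTPase cycle of coats, with the Arf activators GBF1 (110 and 51) and ARFGEF1 (51 and 25), had the lowest median, −0.52 over 8 genes with 2 above and 6 below 0, and −0.12 once corrected for length.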

How the data were processed

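The deposited data used here were 2 lists of intronic clusters, 1 for the WT and 1 for the F125A libraries. Per the file headers, each cluster has a position, strand, gene and region, so the values the authors deposited are positions and carry no other unit. Per the submitters' processing notes, cutadapt, STAR and hg38 were used. The sources used here do not say which caller and threshold made the clusters, how libraries were pooled or how the control served. In the labels' protocols, primers carried 4-nt molecular identifiers. Recovery without a tagged protein was not subtracted, since the control sample was not analysed here. Depth per library is unknown from these lists.

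Repeated rows (7029 WT, 4851 F125A) were dropped, and starts, read as 0-based, are printed 1-based. Genes were placed with RefSeq's GRCh38.p14 table, in which all 139 symbols matched. Length correction subtracted the median ratio in 20 bins of gene length. A gene's interval is the exact (Clopper-Pearson) 95% interval of its WT share, without the added 1. It ignores that most F125A clusters overlap a WT cluster. Scripts ran in Python 3.11.15 with pandas 2.3.3, numpy 2.4.6, scipy 1.17.1 and matplotlib 3.10.9, and the ratios were tested on simulated data. In that simulation, changes were planted only in genes with many more clusters than SEC24A, so recovery in genes with few clusters was not tested.

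The members and gene lists were chosen with earlier results of these data known. Genes named were, per name family, the 4 with most WT clusters, then the 6 highest and 6 lowest ratios, up to 6 found in 1 list, the 6 with most WT clusters lacking a partner, the 5 longest clusters per list, the 5 densest genes and 2 per related list. Genes outside this rule were chosen after their values were seen. The pentamer count was likewise chosen after seeing the data.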

Additional observations from a re-analysis of the deposited data

How the results depend on the processing

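Of 59 values recomputed under the alternatives, 49 moved by less than their error or kept their count and 10 moved. Some of the 49 could not have moved. The run of identical rows held no cluster of the members, so leaving it out could not change their cluster counts or lengths. The median ratio of the members, 0.08, was −0.10 with 5 added to each count, when the median of all genes was −0.16 and 35 members were above and 46 below 0. It lay between −0.01 and 0.12 under the other alternatives. As reported, 1 of 81 members was 2-fold toward WT, against 141 of 5626 over all genes. With clusters closer than 50 nt merged it was 2 of 77 (SEC24A and VPS50), against 133 of 5273. With 5 added it was 0 of 81, against 36 of 5626. With at least 10 clusters it was 3 of 106 (SEC24A, SNX16 and SNX8), against 263 of 7572. With at least 50 clusters it was 0 of 44, against 50 of 3045. Centred on the median gene it was 3 of 81 (SEC24A, VPS35L and VPS50), against 170 of 5626. A gene with at least 50 clusters excludes SEC24A by construction. Merging turned the split above and below 0 from 43 and 38 to 48 and 29, centring to 48 and 32, and a minimum of 10 clusters to 51 and 55, a majority below 0. The split over all genes was not counted under these alternatives. No member was 2-fold toward F125A under any alternative, where all genes had from 26 of 5626 (length corrected) to 273 of 7572 (at least 10 clusters). Requiring 50% of a cluster to overlap gave 80.6% of F125A and 36.3% of WT clusters with a partner. Merging raised the median WT cluster to 63 nt. Among clusters of 40 to 60% G and C, an alternative chosen after seeing the data like all those on the pentamer, 7.43% of WT clusters with a partner held GCATG.

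No paired analysis was possible because each list combines the libraries of its group and has no column per replicate, and leaving out a replicate was not possible for the same reason. Without read counts, the depth behind a cluster is unknown, and the number of libraries differed between the lists (3 WT and 2 F125A).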
